A study of Mus musculus with 4 samples.

Results

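Alpha-type globins, blood cell regulators and endothelial surface genes were followed in RNA sequencing of mouse embryoid bodies, which are balls of differentiating stem cells. The set is a fixed list of 10 genes, with no threshold on a measured value in its rule, though it was drawn up with earlier results of these data known: the alpha-type globins Hba-x, Hba-a1 and Hba-a2, the blood regulators Runx1, Myb and Ikzf1, the surface protein gene Cd34, and the endothelial genes Erg, Pecam1 and Icam2. The table used here holds 9 of the 10, out of 9997 gene symbols in all. It has no row named Hba-a2, which was not analysed here. Of the 9, 6 reached 1 FPKM in some library and 3 (Ikzf1, Erg and Icam2) did not.

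The embryoid bodies came from the stem cell line ES-E14TG2a, and the series follows their differentiation towards neurons under all-trans retinoic acid (ATRA), a hormone-like derivative of vitamin A. There were 4 libraries, each the only 1 of its group: control embryoid bodies, and embryoid bodies with ATRA at 0, 6 and 10 days. Per the protocol, 5 µM ATRA was added on day 4 and again on day 6 of suspension culture, and dishes coated with poly-DL-ornithine and laminin were used after 8 days. All groups share the line and its medium with serum. How old the control cultures were, and whether each library precedes the move to dishes, is not stated in the labels, so ATRA, culture age and culture format cannot be told apart. With 1 library per group no difference below has a replicate check or a test.

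In the mouse embryo the first blood forms in the yolk sac, where mesoderm gives rise to endothelium and to primitive red cells that make embryonic globins. Later waves of blood progenitors bud from endothelium under the control of Runx1, and depend on Myb. Embryoid bodies are a classical model of these steps. Retinoic acid steers them towards neural and other fates, and several genes that mark endothelium in the adult are also active in undifferentiated embryonic stem cells.

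Levels are in FPKM, which counts fragments per kilobase of a transcript and scales them to the library's mapped fragments. Estimated depth was 24500000 to 27300000 fragments per library, and intervals given with levels or ratios are 95% Poisson intervals that cover counting error only. Differences were taken as log2(FPKM + 1) of 1 library minus that of another, a scale that shrinks the change of low genes. A call of higher or lower means 2-fold or more on that scale, among the 5885 symbols that reached 1 FPKM in any library. Median-ratio scaling of the libraries moved the median of all genes by 0.12 for 0 days against control and by 0.15 for 10 days against control. It moved the share of higher genes among those called from 48.9% to 60.6% and from 53.5% to 63.2% in these comparisons; no member's call changed under it or under upper-quartile scaling.

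The alpha-globin genes lie side by side on chromosome 11 of mm10, in the order Hba-x (32276400 to 32278116), Hba-a1 (32283511 to 32284465) and Hba-a2 (32296489 to 32297298), all on the plus strand. Their proximal promoters are shown because both globins of the table had their highest level in the same library, and because Hba-a1 and Hba-a2 are copies. The 250 bases before each RefSeq start (GRCm38.p6, plus strand, 5′ to 3′) are given for Hba-x at chr11:32276350-32276599 and for Hba-a1 at chr11:32283422-32283671. The gene spans above are from GENCODE, which starts Hba-x and Hba-a1 upstream of their RefSeq starts. Most of each window shown therefore lies inside the span given for its gene. Capitals mark the GATAA core that GATA factors bind, the CACCC element, the CCAAT box and the TATAA box, each searched on both strands.
Hba-x: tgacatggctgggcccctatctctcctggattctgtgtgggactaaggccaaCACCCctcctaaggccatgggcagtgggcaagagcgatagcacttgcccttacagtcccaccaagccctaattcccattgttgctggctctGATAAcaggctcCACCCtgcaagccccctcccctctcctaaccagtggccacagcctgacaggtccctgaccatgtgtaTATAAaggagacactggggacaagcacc
Hba-a1: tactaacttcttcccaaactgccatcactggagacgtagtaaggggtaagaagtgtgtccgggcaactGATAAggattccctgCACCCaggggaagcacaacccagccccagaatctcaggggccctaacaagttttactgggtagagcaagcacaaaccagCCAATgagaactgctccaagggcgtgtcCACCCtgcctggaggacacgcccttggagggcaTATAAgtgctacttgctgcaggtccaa

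Both promoters held the GATAA core, the CACCC element in 2 places, and the TATAA box near the start, at 28 bases before it in Hba-x and 27 in Hba-a1. CCAAT was found in Hba-a1, 88 bases before the start, and not in this window of Hba-x. Among 32851 promoter windows of the same length, 22.6% held GATAA, 52.0% CACCC, 33.8% CCAAT and 22.8% TATAA, so each of these matches is common. The Hba-a2 window was identical to that of Hba-a1 over all 247 bases that the windows share. The transcripts are also near copies: of 505 stretches of 50 bases in the annotated Hba-a2 transcript, 439 (86.9%) occur unchanged in that of Hba-a1, with a shared run of 415 bases. None of the 752 such stretches of Hba-x occurs in Hba-a1. Reads of Hba-a1 and Hba-a2 therefore could be split between the copies by the authors' software, while those of Hba-x could be told from Hba-a1.

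Hba-x and Hba-a1 were both highest at 10 days and were both listed at 0 in the control and at 0 days. Hba-x encodes zeta globin, the embryonic alpha-type chain of primitive red cells. It stood at 0.402 FPKM at 6 days and 6.99 FPKM at 10 days, about 8 and 153 fragments by the length of its annotated transcript. The interval at 6 days, 0.171 to 0.781 FPKM, lay well below the 5.93 to 8.20 FPKM of 10 days. Hba-x rose by a log2 difference of 2.51 from 6 to 10 days, a ratio of 17.4 in FPKM (8.60 to 41.0). In bulk RNA a change in the number of cells of a type cannot be told apart from a change in RNA per cell.

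Hba-a1, an alpha chain of fetal and adult haemoglobin, has 2 rows under the same symbol, which were summed. Its first row went from 0.213 FPKM at 6 days to 1.76 FPKM at 10 days. The second row went from 0.106 to 0.219 FPKM. No source used here says whether either row stands for the Hba-a2 locus. The sum was 0.319 FPKM at 6 days and 1.98 FPKM at 10 days, about 6 and 38 fragments, a log2 difference of 1.17 and a ratio of 6.18 (2.59 to 17.9). Per length, Hba-x was therefore the higher of the globins at 10 days, and at 6 days their intervals overlapped.

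**Figure D1:**
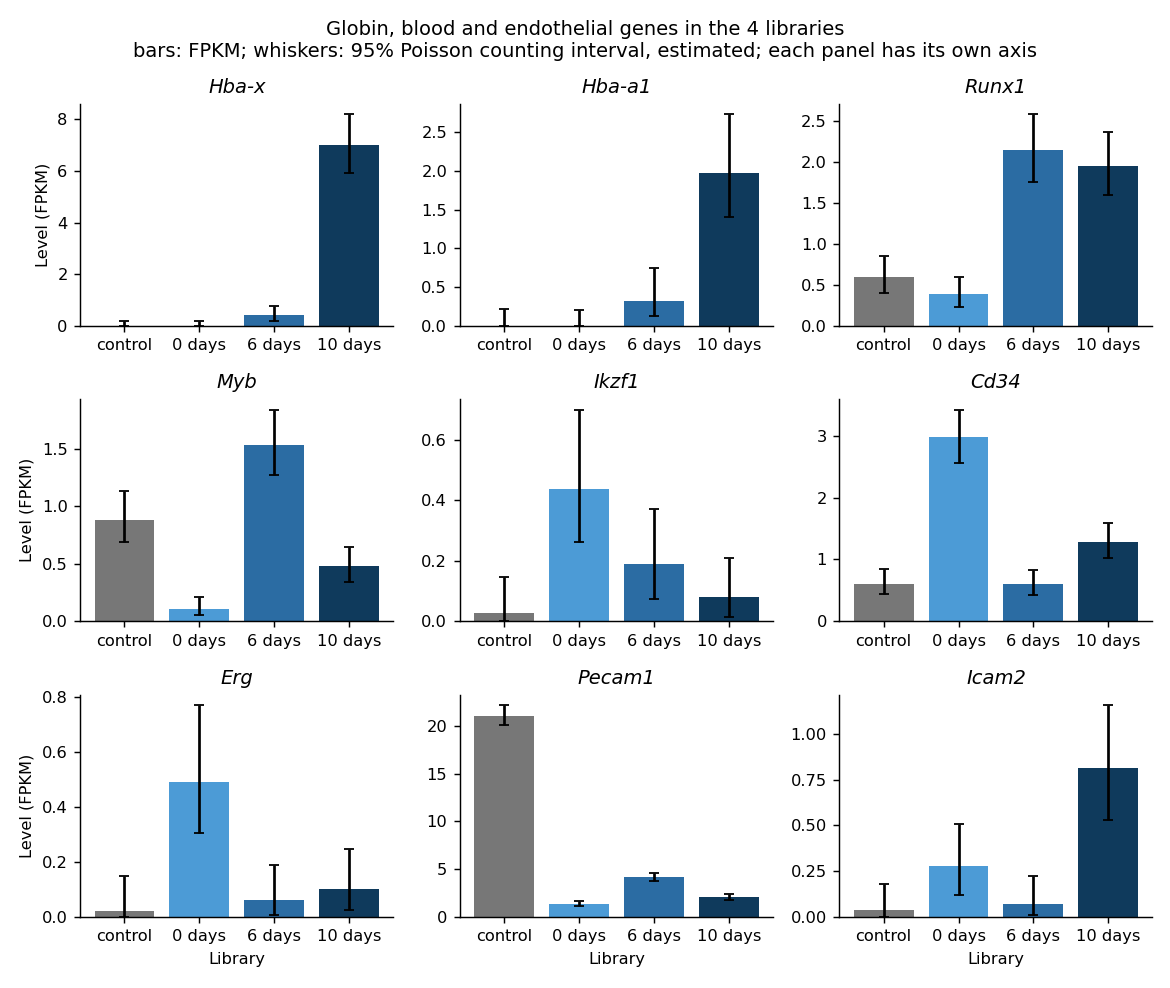
Level in FPKM (vertical axis, a separate scale in each panel) of the 9 genes in the control, 0-day, 6-day and 10-day libraries; bars are the deposited values and whiskers the estimated 95% counting intervals. The globins are seen at 10 days, Pecam1 stands highest in the control at 21.1 FPKM, and Cd34, Erg and Ikzf1 are highest at 0 days.

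Those 2 globins were the only members called from 6 to 10 days, of 6 tested. Of all 5885 genes, 3.70% were called higher in this comparison and 0.850% lower. Both globins entered the tested set through the 10-day library alone, so their calls follow in part from the filter. Against the control the same 2 were higher at 10 days (log2 differences of 3.00 and 1.57; 19.6% of all genes were called higher), with no fold given because the control is listed at 0.

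Other genes of the red cell programme gave little signal in any library. Of 21 genes on the erythroid list 8 are in the table, and Sptb, the spectrin beta chain, alone reached 1 FPKM, at 2.95, 2.28, 1.73 and 2.81 FPKM in the control and at 0, 6 and 10 days. Slc4a1, the anion exchanger of the red cell membrane, stood between 0.0420 and 0.0605 FPKM. Rhag, the Rh-associated glycoprotein, was listed at 0 in all 3 ATRA libraries and at 0.0205 FPKM in the control. The theta globins Hbq1a and Hbq1b, in the same cluster, were highest at 0 days, at 0.471 and 0.335 FPKM, and stood at 0.304 and 0.0713 FPKM at 10 days. Both stayed below 1 FPKM and have no counting interval here, so their order of libraries is not read against that of Hba-x. The other 13 listed genes, beta globins among them, were not analysed here.

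The tested neighbours of the globins, all outside the globin family, were not called at any of the 3 successive steps. Of all genes, 12.2%, 8.22% and 3.70% were called higher at these steps, and 12.8%, 4.88% and 0.850% lower. The 10 listed neighbours, Hbq1a and Hbq1b among them, are all in the table and 7 were tested, with medians of -0.18, 0.23 and 0.11 for 0 days against control, 6 against 0 days and 10 against 6 days, beside -0.04, 0.01 and 0.02 for all genes. Under both other scalings 1 of the 7, Ubtd2 (6.93 and 14.8 FPKM), was called higher at 0 days than in the control. Nprl3, whose introns hold the main enhancers of the alpha globins, stood at 9.39, 7.91, 11.4 and 10.9 FPKM in order of the libraries. At 10 days against control 2 of the 7 were called higher and 0 lower, where 19.6% and 17.1% of all genes were. The 2 were Rhbdf1, a rhomboid-family gene of this neighbourhood (23.1 against 4.91 FPKM), and Sh3pxd2b (6.10 against 2.45 FPKM).

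Red cells need haem and iron in bulk, and none of the 7 tested genes of haem synthesis and iron supply was called from 6 to 10 days (median 0.23, beside 0.02 for all genes). Of all genes, 3.70% were called higher in this step and 0.850% lower, so the lack of calls among 7 genes is near that share. Glrx5, a mitochondrial glutaredoxin for iron-sulphur clusters, stood at 73.3 and 116 FPKM in that step. Tfrc, the transferrin receptor, fell from 107 FPKM in the control to 32.1 FPKM at 0 days (log2 difference -1.71) and stood at 31.0 FPKM at 10 days. Slc25a37, the mitochondrial iron importer mitoferrin, fell from 16.6 FPKM at 0 days to 6.04 FPKM at 6 days. Ppox, an enzyme of the haem pathway, was between 8.20 and 15.0 FPKM.

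Runx1 and Myb, regulators of blood progenitors, were highest at 6 days and lowest at 0 days. Runx1 (chromosome 16, 92601466 to 92826149, minus strand) encodes the transcription factor under which blood progenitors leave the endothelium. It stood at 0.593 FPKM in the control, 0.388 FPKM at 0 days, 2.15 FPKM at 6 days and 1.95 FPKM at 10 days. The control and 0 days overlapped in their counting intervals, as did 6 and 10 days, so the libraries fall into a lower and a higher pair. Runx1 rose from 0 to 6 days by a log2 difference of 1.18, a ratio of 5.54 (3.41 to 9.42). Against the control its difference at 10 days was 0.89, short of 2-fold on this scale, although the FPKM ratio was 3.29 (2.16 to 5.15); with a pseudocount of 0.5 or 0.1 it was called.

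Myb (chromosome 10, 21124935 to 21160984, minus strand), a factor that keeps blood progenitors dividing and is also active in other immature cells, gave a different order. It stood at 0.884 FPKM in the control, 0.108 FPKM at 0 days, 1.53 FPKM at 6 days and 0.476 FPKM at 10 days, and the 4 counting intervals did not overlap. Myb rose from 0 to 6 days by 1.19 on the log2 scale, a ratio of 14.3 (7.27 to 32.0) from about 9 fragments at 0 days. Myb reached 1 FPKM in the 6-day library alone, so this call follows in part from the filter. Its differences of -0.77 for 0 days against control and -0.78 for 10 against 6 days missed 2-fold, while the FPKM was 8.22 times (4.08 to 18.8) and 3.22 times (2.23 to 4.73) lower. Both were called with a pseudocount of 0.5 or 0.1. Runx1 and Myb thus differed by library: Runx1 at 10 days was near its 6-day level and Myb was not.

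Ikzf1 (chromosome 11, 11685003 to 11772926), which encodes the lymphoid factor Ikaros, stayed below 1 FPKM throughout. Its levels were 0.0258 FPKM in the control, 0.438 FPKM at 0 days, 0.189 FPKM at 6 days and 0.0790 FPKM at 10 days. The interval at 0 days (0.262 to 0.700 FPKM) lay above those of the control and 10 days and overlapped that of 6 days. The control level rests on 1 to 3 fragments, depending on the transcript.

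From the list of other progenitor factors 9 of 24 genes are in the table and 6 were tested. Meis1 rose at 0 days, from 0.294 to 29.4 FPKM, and stood at 14.8 FPKM at 10 days; it is a cofactor of Hox proteins in blood progenitors and in many other embryonic cells. Mycn, at 18.3 FPKM in the control, stood at 9.44 FPKM at 0 days (log2 difference -0.88, no call), rose to 21.7 FPKM at 6 days, and was at 21.9 FPKM at 10 days. Bcl11a, a repressor of embryonic and fetal globin genes, was highest at 6 days (2.70 FPKM) and stood at 1.16 FPKM at 10 days, without a call at any step. Runx2, a relative of Runx1 known from bone, was highest at 0 days, at 1.04 FPKM, where Runx1 was lowest; its log2 difference from the control was 0.997, and it was called there under both other scalings. Itga2b, the CD41 integrin of platelets and early blood progenitors, was highest at 10 days, at 1.17 FPKM beside 0.287 FPKM at 6 days, without a call.

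The leukocyte markers did not move as a group. Of the 6 markers set for this cell type, 4 stayed low in every library: Ptprc, the pan-leukocyte CD45, was between 0.00650 and 0.0332 FPKM, Cd48 was listed at 0 in all 4 libraries, Itgb2 was at most 0.112 FPKM and Vav1 at most 0.326 FPKM. The other 2, Csf1r and Lcp1, were higher at 10 days than in the control. Cd68, a lysosomal protein of macrophages and of other cells, was the most abundant of the wider list, at 1455, 572, 920 and 736 FPKM in order of the libraries. The table holds 27 of 33 listed genes. Of these, 10 were tested, and 4 were called higher and 2 lower at 10 days than in the control, where 19.6% and 17.1% of all genes were. All 4 higher genes were below 1 FPKM in the control, and the 2 lower genes reached 1 FPKM in the control alone. The filter thus favours these calls, and their count is not read against that share. The higher ones were led by Lcp1, an actin bundling protein (0.184 to 16.1 FPKM), Fcgr3, an Fc receptor (0.409 to 13.1 FPKM), and Csf1r, the receptor of macrophages that trophoblast also uses (0.0281 to 4.15 FPKM). Cd79b, a chain of the B cell receptor, was lower (2.73 to 0.435 FPKM). The median of the 10 was -0.10, beside -0.04 over all genes. Under each of the 2 other scalings 9 genes reached the filter, and their medians were 0.39 and 0.33.

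**Figure D2:**
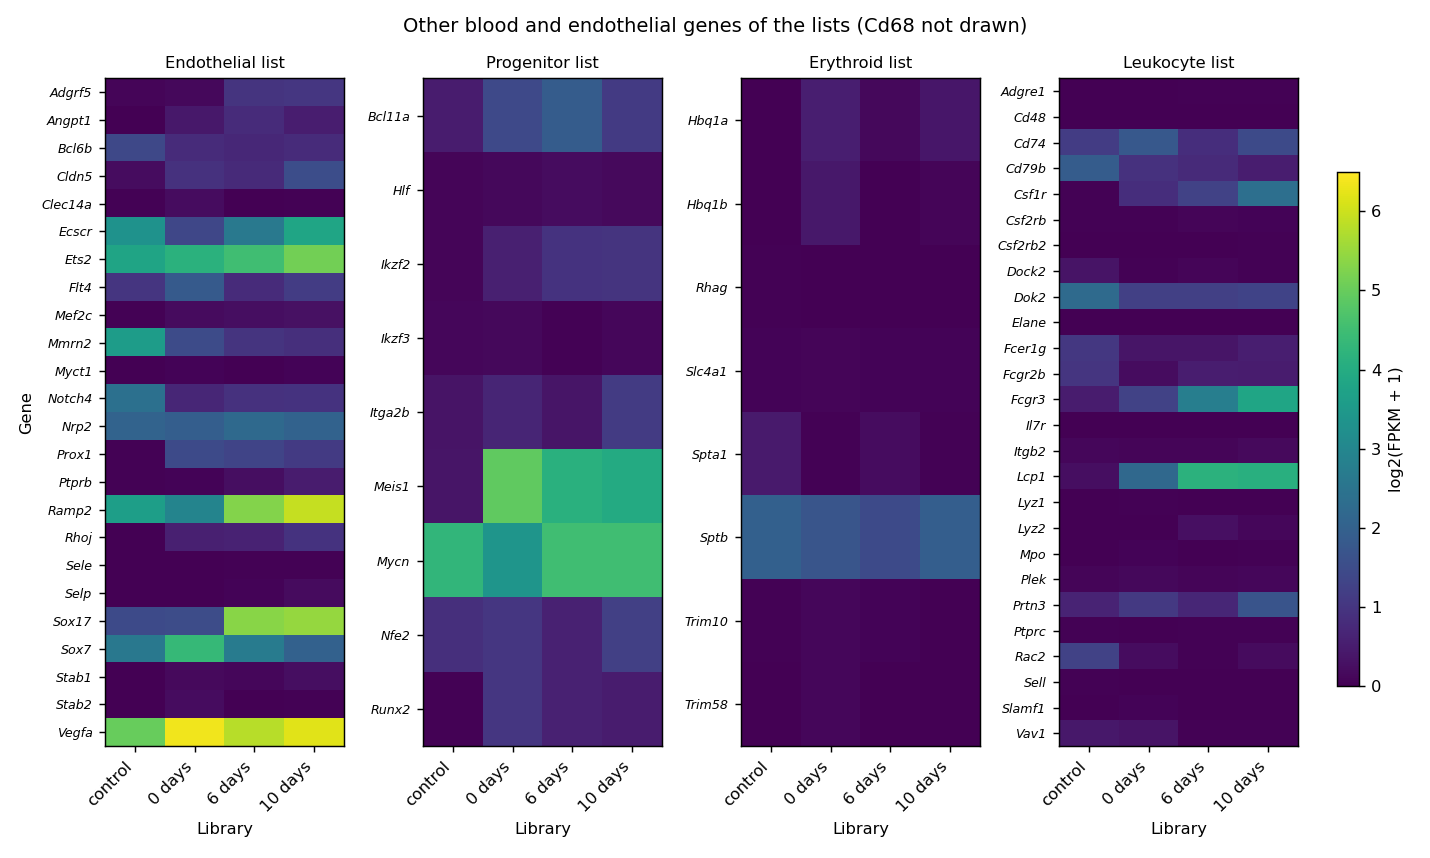
Level as log2(FPKM + 1) (colour) of the listed endothelial, progenitor, erythroid and leukocyte genes of the table (rows) in the 4 libraries (columns); Cd68, at 572 to 1455 FPKM, is left out because it exceeds the colour scale. Most erythroid and leukocyte rows are dark in all libraries, while Lcp1, Fcgr3 and Csf1r are brighter at 10 days than in the control.

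Cd34 and Erg had their highest level at 0 days. Cd34 (chromosome 1, 194938819 to 194961279, plus strand) encodes a sialomucin on blood progenitors, small vessels and some mesenchyme. It stood at 0.608 FPKM in the control, 2.97 FPKM at 0 days, 0.597 FPKM at 6 days and 1.28 FPKM at 10 days. The control and 6 days were the only libraries whose counting intervals overlapped. Cd34 rose from the control to 0 days by 1.31 on the log2 scale, a ratio of 4.89 (3.42 to 7.15), and fell from 0 to 6 days by 1.32. The level at 10 days was 2.14 times that at 6 days (1.44 to 3.24), a log2 difference of 0.51 and no call.

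Erg (chromosome 16, 95359169 to 95586593, minus strand) is an ETS-family transcription factor of endothelium and blood stem cells. It was at 0.0196 FPKM in the control, 0.490 FPKM at 0 days, 0.0599 FPKM at 6 days and 0.102 FPKM at 10 days. The 0-day interval, 0.305 to 0.771 FPKM, lay above that of each other library, with at most 0.247 FPKM. Erg at 0 days rests on about 20 to 42 fragments, and in the control on 1 to 2. Cd34, Erg and Ikzf1 made up the 3 members highest at 0 days.

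Pecam1 was the most abundant member and the only 1 highest in the control. It encodes the adhesion protein CD31, a standard endothelial marker that mouse embryonic stem cells also carry (chromosome 11, 106654217 to 106750628, minus strand). The control stood at 21.1 FPKM (about 1554 to 1779 fragments), 0 days at 1.37 FPKM, 6 days at 4.15 FPKM and 10 days at 2.05 FPKM, and no 2 counting intervals overlapped. Pecam1 fell by 3.22 on the log2 scale from the control to 0 days, to a level 15.4 times lower (12.7 to 18.9). It rose from 0 to 6 days by 1.12, a ratio of 3.04 (2.43 to 3.81), and its difference of -0.76 from 6 to 10 days missed 2-fold. At 10 days it was still lower than the control, by a log2 difference of -2.86.

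Icam2 (chromosome 11, 106377656 to 106388075, minus strand), an adhesion molecule of endothelium and platelets, had another order. It was at 0.0372 FPKM in the control, 0.277 FPKM at 0 days, 0.0726 FPKM at 6 days and 0.814 FPKM at 10 days. The 10-day interval, 0.532 to 1.16 FPKM, lay above the other 3, and the control and 6 days rest on about 1 and 2 fragments. From 6 to 10 days its ratio was 11.2 (2.83 to 97.1), on a level below the 1 FPKM filter.

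**Figure D3:**
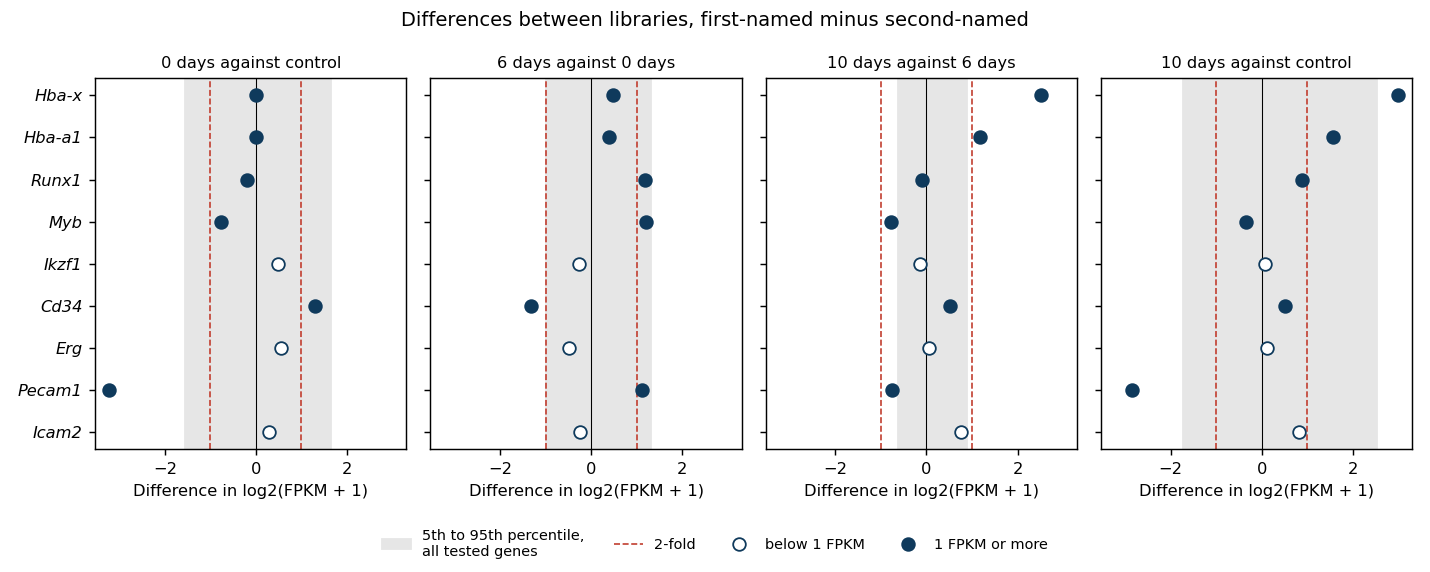
Difference in log2(FPKM + 1) (horizontal axis) of each of the 9 genes in the 4 comparisons; filled points reached 1 FPKM in at least 1 library, open points did not, the grey band spans the 5th to 95th percentile of all 5885 tested genes, and dashed lines mark 2-fold. Pecam1 lies left of the band at 0 days against control (-3.22), and Cd34 at 6 against 0 days (-1.32). At 10 against 6 days Hba-x (2.51) and Hba-a1 (1.17) lie right of it and Myb (-0.78) and Pecam1 (-0.76) left. At 10 days against control Hba-x (3.00) lies right and Pecam1 (-2.86) left.

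Over the 6 tested members, the calls moved from gene to gene across the series. At 0 days against control, Cd34 was higher and Pecam1 lower (12.2% of all genes were called higher and 12.8% lower). From 0 to 6 days, Runx1, Myb and Pecam1 were higher and Cd34 lower (8.22% and 4.88% of all genes). Myb passed the filter only through 6 days and Runx1 only through 6 and 10 days, which favours their calls, so their count is not read against that share. From 6 to 10 days only the globins were called, and at 10 days against control Pecam1 was lower beside the higher globins (17.1% of all genes were called lower). The medians of the 6 were -0.10, 0.80, 0.21 and 0.70, beside -0.04, 0.01, 0.02 and -0.04 over all genes. Hba-x and Hba-a1 passed the filter only through 10 days. With Runx1 and Myb, they make these medians follow in part from the filter, so the medians are not read against those of all genes. Successive comparisons share a library, so a high value in it raises 1 difference and lowers the next.

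The wider endothelial list did not follow a single course. Of 40 listed genes 24 are in the table and 14 were tested: 3 were called higher and 3 lower at 0 days, 3 and 2 from 0 to 6 days, 1 and none from 6 to 10 days, and 6 and 2 at 10 days against control. In that last comparison 19.6% of all genes were called higher and 17.1% lower, and the list's median was 0.71 beside -0.04 over all genes. The higher genes were Cldn5, Ramp2, Prox1, Vegfa, Sox17 and Ets2. Cldn5 passed the filter only through 10 days, Prox1 only through ATRA libraries, and Notch4, called lower, only through the control. The filter favours such calls, so the count and median are not read against all genes. Mmrn2, an endothelial matrix protein, was like Pecam1 highest in the control, at 11.1 FPKM, and fell to 1.81 FPKM at 0 days and stood at 0.850 FPKM at 10 days. Notch4 likewise fell at 0 days, from 4.29 to 0.636 FPKM. Ecscr, an endothelial surface protein, fell from 9.02 to 1.60 FPKM at 0 days, rose to 5.13 FPKM at 6 days and rose again to 13.1 FPKM at 10 days. Ramp2, a coreceptor for adrenomedullin, rose from 6.65 FPKM at 0 days to 38.5 FPKM at 6 days and stood at 60.0 FPKM at 10 days. Sox17, a factor of arterial endothelium and of endoderm, rose from 1.87 to 39.6 FPKM from 0 to 6 days. Endothelial genes with low values included Clec14a (at most 0.152 FPKM), Stab2 (at most 0.166 FPKM) and Myct1 (at most 0.0482 FPKM). Cdh5, Kdr and Tek, which define endothelium more strictly, were not analysed here.

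Genes of other tissues changed at the same steps, and their part in the members' values was not tested. All 9 tested visceral endoderm genes were called higher at 10 days than in the control, and none is listed at 0 in any library. Their summed level was 35.3, 86.1, 586 and 900.1 FPKM in the control and at 0, 6 and 10 days. From 6 to 10 days 2 of the 9 were called higher, Apoa2 (40.8 to 146 FPKM) and Apom (23.6 to 69.4 FPKM). Of 8 mesenchyme and muscle genes 4 were called higher in that step, including Tnnc1, cardiac troponin C (45.7 to 217 FPKM), and Col1a1 (14.6 to 42.8 FPKM); upper-quartile scaling gave 3. The summed level of these 8 was 30.4, 47.8, 123 and 421 FPKM.

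For the 2 members at 5 FPKM or more in their highest library, the genes of most similar profile were sought among 4508 genes, by Euclidean distance of log2(FPKM + 1) after removing each gene's mean over the 4 libraries. Closest to Hba-x were Prl2c3 (distance 0.26), Prl3b1 (0.27) and Apoh (0.37). Prl2c3 and Prl3b1 encode placental prolactins, and stood at 0.447 and 0.669 FPKM at 6 days and at 8.94 and 6.37 FPKM at 10 days. Apoh, a plasma apolipoprotein, went from 0.520 to 5.21 FPKM. Closest to Pecam1 were Socs2, a feedback inhibitor of cytokine signalling (0.32), Etv5, an ETS factor of the FGF response (0.40), and Adarb2, a relative of the RNA-editing enzymes (0.41). Socs2 stood at 35.9, 3.06, 9.56 and 5.56 FPKM in order of the libraries. With 4 libraries many genes share a profile, and these likenesses are a description.

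**Figure D4:**
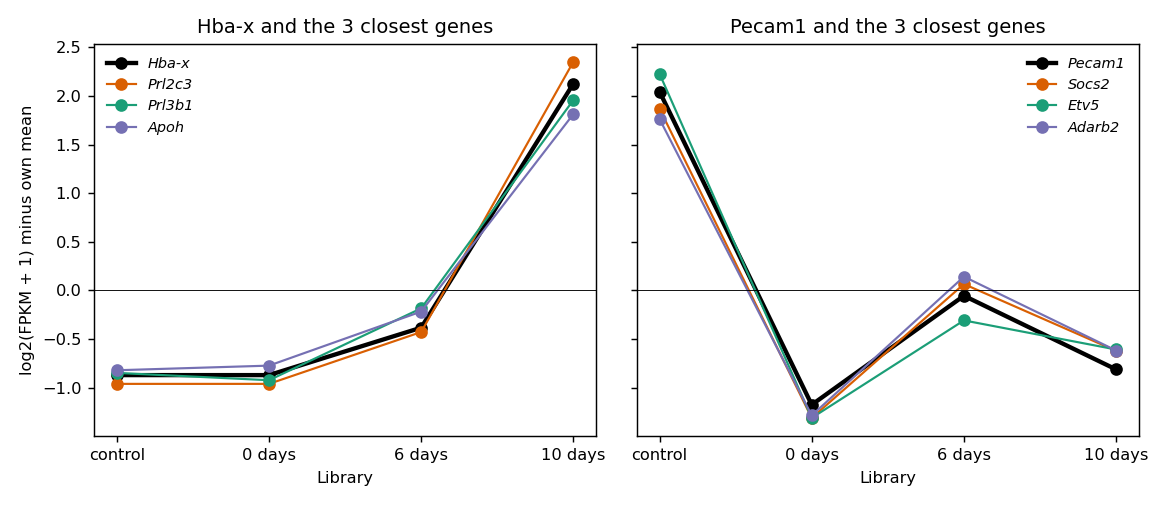
Level as log2(FPKM + 1) minus the gene's own mean over the 4 libraries (vertical axis) for Hba-x and its 3 closest genes (left) and Pecam1 and its 3 closest genes (right). The left group is seen to stand highest at 10 days and the right group in the control, with 6 days above 0 and 10 days.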

How the data were processed

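RNA was measured in 4 libraries of ES-E14TG2a embryoid bodies. The deposited values are FPKM per the file headers, 1 column per library, matched to samples by the library names in the header. The submitters' processing notes name Trimmomatic, TopHat and Cufflinks, without versions, and the build mm10; annotation, strand setting and filters: not given in the sources used here. Cufflinks-type estimates can split reads of near-identical genes.

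The table had 10201 rows and 9997 symbols; rows of the 177 repeated symbols were summed. Positions and transcript lengths are from GENCODE M21 (GRCm38, the same assembly as mm10), and promoters from RefSeq (GRCm38.p6; all 3 globins matched). Depth was estimated from the low values, times length, of 1377 genes whose only annotated transcript is 800 nt or longer. These pile up at 0.0366 to 0.0408 FPKM times kb, taken as 1 fragment. Members' fragments are FPKM times the shortest to longest RefSeq-matched transcript, and intervals use the shortest. They ignore effective length, so fragments of the short globin transcripts may be overestimated. The Hba-x and Hba-a1 lengths, 801 and 699 nt, are from GENCODE, whose spans of these genes begin upstream of the RefSeq starts. With shorter transcripts their fragment estimates would be lower.

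Differences used a pseudocount of 1 and 2-fold calls among the 5885 symbols reaching 1 FPKM; 4 comparisons were made. There were 8 gene lists, with 100 of 173 distinct genes in the table and 62 tested. The members and lists were chosen with earlier results of these data known. Named genes are the members and up to 4 genes of each list with the widest range. They include the 3 genes of closest profile to each member at 5 FPKM or more. Other named genes were chosen after their values were seen. These are Slc4a1, Rhag, Hbq1a, Hbq1b, Nprl3, Itga2b, Ptprc, Cd48, Itgb2, Vav1, Cd68, Notch4, Clec14a, Stab2, Myct1, Cldn5, Prox1, Vegfa and Ets2. Alternatives were other pseudocounts, filters, scalings, thresholds and row handling. The calling script was tested on simulated data with planted changes, which checks the arithmetic and says nothing on the calls' reproducibility. Software was matplotlib 3.10.9, scipy 1.17.1, pandas 2.3.3 and numpy 2.4.6 on Python 3.11.15.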

Additional observations from a re-analysis of the deposited data

How the results depend on the processing

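With 1 library per group, depth covers counting error only, and levels near 0.1 FPKM rest on a few fragments. The same members were called under median-ratio scaling, upper-quartile scaling, no filter and the highest row of a repeated symbol. At 5 FPKM only Hba-x and Pecam1 were tested, and 1 member each was called for 0 days against control, 6 against 0 days and 10 against 6 days, in place of 2, 4 and 2, because fewer genes were tested. At 4-fold, 1 (Pecam1), 0 and 1 (Hba-x) members were called in these steps. With a pseudocount of 0.1, 6 members were called from 0 to 6 days, the globins included. Of all 5885 genes, 723 were higher and 473 lower under that setting. The globin calls rest on about 8 and 6 fragments at 6 days. Hba-x, Hba-a1, Runx1 and Myb passed the filter only through 6 days, 10 days or both, so this count is not read against that share. No member's called difference changed sign under these alternatives. Of the members' recomputed differences 122 did not move or shifted little beside the log2 interval of their FPKM ratio. The other 30 moved further, including moves against a library listed at 0, which have no interval. Changing the filter cannot move a member's difference, nor can row handling for any member but Hba-a1. Many of the 122 were thus fixed in advance, and the tally is no measure of robustness.

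Over all genes, 4-fold gave 192 higher and 153 lower at 0 days against control (720 and 752 at 2-fold), 133 and 47 for 6 against 0 days (484 and 287), 29 and 7 for 10 against 6 days (218 and 50), and 469 and 189 for 10 days against control (1156 and 1005). A pseudocount of 0.1 gave 1111 higher at 0 days against control, 473 lower for 6 against 0 days, and 363 higher and 185 lower for 10 against 6 days; 0.5 gave 98 lower there. No paired analysis was possible because each group has 1 library.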
